A study of Mus musculus with 10 samples.

Results

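The genes described here encode the machinery that brings proteins into mitochondria and the proteins of the mitochondrial ribosome, in cultured primary mouse cells of the lymphatic vessel wall (lymphatic endothelial cells). They were chosen by gene symbol: the translocase genes are the rows named Timm or Tomm followed by a number, and the ribosome genes those named Mrpl or Mrps followed by a number. This gave 103 of the 16251 genes in the deposited count table, of which 25 are import genes (15 Timm, 10 Tomm) and 78 ribosome genes (49 Mrpl, 29 Mrps). No measured value entered this rule, but the gene families were put forward with results of the same contrast known, so the counts and medians below describe them and do not test them as a group.

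Messenger RNA was sequenced from 10 libraries of these cells, 5 labelled control and 5 labelled Vegfr2 siRNA, all taken at 48 h. A small interfering RNA (siRNA) is a short duplex that directs cleavage of a matching transcript, and here 50 nM of it was aimed at Vegfr2, the receptor for vascular endothelial growth factor that the gene Kdr encodes. The labels give every sample the treatment tag siRNA knockdown and do not say what the control cells received, nor whether replicates were separate cultures, so p-values measure the spread between these libraries, which may be technical. The genotype tag of the labels reads Control or siRNA, and the labels name no mouse strain and no donor animal.

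Most mitochondrial proteins are made in the cytosol and imported. The TOM complex is the entry gate of the outer membrane, and behind it the TIM23 complex passes proteins with an N-terminal targeting signal into the matrix or inner membrane, while the TIM22 complex inserts carrier proteins. The small TIM proteins are chaperones that escort hydrophobic precursors across the space between both membranes. The mitochondrial ribosome, built from nuclear-encoded Mrpl (large subunit) and Mrps (small subunit) proteins and RNA from the mitochondrial genome, makes the few respiratory chain subunits encoded there. Its protein subunits are themselves import substrates.

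The libraries held between 17946483 and 18239260 estimated counts. Kdr, the targeted gene, had 1323 ± 66.3 CPM (counts scaled to library size with TMM factors) in the control group and 186 ± 14.8 CPM in the siRNA group (SD, n = 5 each), 14.02% of the control level. All 10 lymphatic and endothelial markers examined, among them Prox1, Flt4, Lyve1 and Cdh5, were detected, and 8 of them fell, Pdpn rose (0.81) and Cdh5 did not pass (−0.04). Their summed level, carried mostly by Lyve1, Reln and Flt4, was 16278 to 17488 CPM in control and 11856 to 12712 CPM in siRNA libraries. The 9 fibroblast and mural cell markers summed to 11.4 to 15.4 and 11.96 to 13.96 CPM, the 5 of 8 myeloid markers in the table to 125 to 146 and 94.4 to 106 CPM, nearly all from Cd14 and Cd68, and the 4 of 6 epithelial markers to 1.22 to 2.46 and 7.68 to 8.73 CPM, nearly all from Krt18. Of the 3 fibroblast and mural markers tested, Acta2 rose (from 3.39 ± 0.556 to 5.22 ± 0.645 CPM), and Pdgfrb (from 6.45 ± 1.22 to 4.84 ± 0.699 CPM) and Notch3 fell (from 1.92 ± 0.389 to 1.28 ± 0.113 CPM; SD, n = 5 each). Pdgfra, under the filter, had 5 counts in the control and 45 in the siRNA group, with every siRNA library higher. Lum, Rgs5, Spi1, Itgam and Cdh1 had at most 1 count in either group. What part these moves of marker genes have in the results below was not tested.

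Genes of both families were mostly higher after the siRNA, by small amounts. Of the 103 genes, 101 passed the filter on low counts, 72 of them rose, 7 fell and 22 did not pass (edgeR quasi-likelihood test, Benjamini-Hochberg adjusted p under 0.05 over all 12161 genes tested). Over all genes tested, 36.1% rose and 35.2% fell. The median log2 fold change was 0.21 over the members tested and −0.00189 over all genes, and the median rise among the members that rose was 20.9%, against 21.1% among all genes that rose. Tested against a fold of 1.2 (glmTreat in edgeR), 25 members rose and 0 fell, where 13.9% of all genes rose and 15.8% fell. For 55 members every siRNA library lay above every control library, and for 4 every siRNA library lay below, where the shares over all genes were 28.8% and 28.2%. No member reached a doubling, and 238 of all 12161 genes tested did. Over 10% of the exon bases of 22 members are shared with another gene. In bulk RNA, fewer or more cells of a type and less or more RNA per cell cannot be told apart.

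Most import genes rose, and none of those tested fell. Of 23 tested, 19 rose and 4 did not pass, with a median log2 fold change of 0.26 and a range from −0.08 to 0.89. The 4 that did not pass were Timm17b (−0.02, adjusted p = 0.794), Timm29 (−0.08, adjusted p = 0.0779), Timm10b (−0.06, adjusted p = 0.453) and Tomm40l (0.07, adjusted p = 0.148; edgeR). Exon bases of Tomm40l are shared with the opposite strand over 64.3% of their length. Timm29 passed as lower with upper-quartile scaling (−0.09, edgeR adjusted p = 0.0311), with a filter at a mean of 5 CPM and without control replicate 2. Tomm20l and Timm8a2, paralogues of Tomm20 and Timm8a1, were under the filter, with summed counts of 0 and 1 in the control group and of 1 and 4 in the siRNA group.

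**Figure D1:**
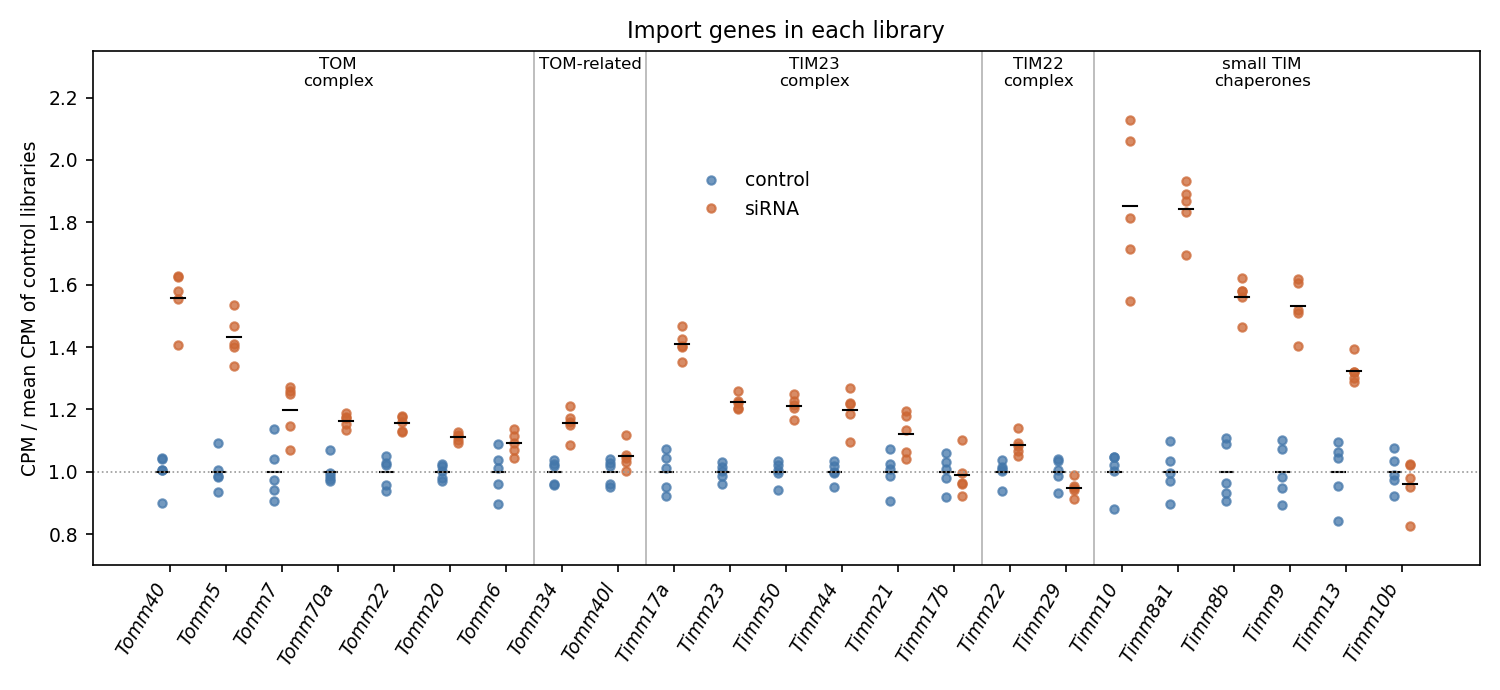
Level of each tested import gene in each of the 10 libraries, as CPM divided by the mean of the 5 control libraries (vertical axis, linear, not starting at 0), with control libraries in blue and siRNA libraries in orange, black bars for group means and genes grouped by complex. In the small TIM group the siRNA points of 5 of 6 genes lie apart from the control points, and 1.85-fold for Timm10 is the largest fitted fold.

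The small TIM chaperones Timm10 and Timm8a1 had the largest rises among the import genes. These proteins form hexamers of Timm9 with Timm10 and of Timm8 with Timm13. Timm10 (Entrez gene 30059, chromosome 2, 84827021 to 84830213, GRCm38.p6) was at 7.44, 7.28, 7.61, 7.62 and 6.39 CPM in control libraries 1 to 5 and at 13.2, 11.2, 14.98, 12.5 and 15.5 CPM in siRNA libraries 1 to 5. The lowest siRNA library lay above the highest control library, and the siRNA libraries were spread more widely, at 13.5 ± 1.76 CPM against 7.27 ± 0.510 CPM (SD, n = 5). The log2 fold change was 0.89 (SE 0.0822, edgeR adjusted p = 1.12e-12), which placed the gene at rank 306 of 12161 by size of rise. Its partner Timm9 (Entrez gene 30056, chromosome 12, 71123172 to 71136708) was at 11.3, 11.7, 12.8, 13.1 and 10.7 CPM in the control and 19.3, 18.1, 16.7, 19.1 and 18 CPM in the siRNA libraries. Again the groups did not overlap, and the log2 fold change was 0.61 (SE 0.0634, edgeR adjusted p = 1.48e-11).

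Timm8a1 is the mouse counterpart of the human gene mutated in deafness-dystonia syndrome. This gene (Entrez gene 30058, chromosome X, 134537256 to 134541670) was at 14.8, 15.4, 16.3, 14.4 and 13.3 CPM in control and 27.8, 27.3, 25.2, 28.1 and 28.7 CPM in siRNA libraries, a log2 fold change of 0.88 (SE 0.0546, edgeR adjusted p = 2.00e-18). Its paralogue Timm8b (Entrez gene 30057, chromosome 9, 50603901 to 50605320) was at 25.8, 25.02, 30.6, 30.1 and 26.7 CPM in control and 40.5, 44.8, 43.7, 43.2 and 43.7 CPM in siRNA libraries, a rise of 0.64 on the log2 scale. For both genes all 5 siRNA libraries were above all 5 control libraries. Timm13, the partner of Timm8, was at 33.6, 30.1, 34.6, 32.96 and 26.6 CPM in control and 44.02, 41.1, 40.6, 41.6 and 41.7 CPM in siRNA libraries, and its rise was smaller (0.40). Control library 5 was the lowest of the controls for Timm10, Timm9, Timm8a1 and Timm13. Exon bases of Timm8b are shared with a gene on the opposite strand over 15.6% of their length, and no strand setting of the counting is given in the sources used here. Timm10b, the small TIM that is bound to the TIM22 complex, averaged 12.7 ± 0.749 CPM without and 12.2 ± 1.04 CPM with the siRNA (SD, n = 5), and the groups overlapped.

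All 7 tested subunits of the TOM complex rose, and 2 of them, Tomm40 and Tomm5, did so when tested against a fold of 1.2. Tomm40, the channel itself (Entrez gene 53333, chromosome 7, 19701313 to 19715442), was at 66.3, 68.8, 68.6, 66.3 and 59.4 CPM in control and 107, 92.7, 102, 107 and 104 CPM in siRNA libraries. The gap between the groups was larger than the spread within either, and the log2 fold change was 0.64 (SE 0.0407, edgeR adjusted p = 3.21e-13). Tomm5, a small subunit that stabilises the channel, was at 24.3, 23.1, 27.01, 24.4 and 24.9 CPM in control and 34.9, 33.2, 34.7, 36.3 and 38.03 CPM in siRNA libraries, a log2 fold change of 0.52. The other 5 subunits rose by less. The receptor genes changed from 164 ± 4.01 to 182 ± 2.31 CPM for Tomm20 (0.15), from 124 ± 4.94 to 145 ± 2.58 CPM for Tomm70a (0.22) and from 95.3 ± 4.60 to 110.1 ± 2.35 CPM for Tomm22 (0.21; SD, n = 5 each). The groups did not overlap for these 3. The small subunit genes Tomm7 (0.26) and Tomm6 (0.13) rose with overlapping groups, and 76% of the exon bases of Tomm6 are shared with another gene on the same strand. Without control replicate 1, Tomm6 did not pass (adjusted p = 0.0630, edgeR). Tomm34, a cytosolic co-chaperone that handles precursors before import, rose by 0.21.

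In the TIM23 complex 5 of 6 genes rose. Timm17a, a core subunit next to the channel (Entrez gene 21854, chromosome 1, 135301535 to 135313737), was at 46.3, 39.8, 44.96, 43.6 and 40.9 CPM in control and 58.3, 61.4, 60.4, 60.4 and 63.3 CPM in siRNA libraries, a log2 fold change of 0.50 (SE 0.0388, edgeR adjusted p = 3.96e-15). Timm17b, the X-linked paralogue that can take its place, was at 25.4, 26.02, 24.7, 26.8 and 23.2 CPM in control and 24.4, 23.3, 27.8, 24.2 and 25.1 CPM in siRNA libraries. The siRNA libraries thus lay apart from the controls for Timm17a and overlapped them for Timm17b, and the difference between both genes was not tested. Timm23, the channel subunit, rose by 0.29 from 111, 112, 108, 116 and 114 CPM in control to 135, 141, 137, 135 and 138 CPM in siRNA libraries. The presequence receptor gene Timm50 (0.28), the motor anchor gene Timm44 (0.26) and Timm21 (0.17), whose product links TIM23 to the respiratory chain, also rose. Of the TIM22 complex, the channel gene Timm22 rose by 0.12 (adjusted p = 0.0195, edgeR), a call that was lost with DESeq2, with the removal of GC and length trends and without control replicate 4 or siRNA replicate 5.

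Levels of different genes were set side by side per kilobase of transcript, using the median length of each gene's coding transcripts. In control cells Timm23 had the highest level of the import genes, at 144 ± 3.89 CPM per kb (SD, n = 5), followed by Tomm22 at 81.1 ± 3.91 and Timm17a at 67.8 ± 4.27 CPM per kb. Tomm20, Timm13, Tomm6 and Timm8b came next, between 61.1 ± 1.50 and 53.4 ± 4.96 CPM per kb, and neighbours among these 4 did not differ beyond their spread. The partners Timm9 and Timm10 stood at 14.3 ± 1.23 and 11.6 ± 0.813 CPM per kb in control and at 21.8 ± 1.23 and 21.5 ± 2.80 CPM per kb in siRNA libraries, where they lay within their spread of each other. With the longest annotated transcript the order of both in control would turn, to 4.65 for Timm9 and 10.5 CPM per kb for Timm10. Timm21 was lowest at 7.84 ± 0.479 CPM per kb, and next came Timm8a1 at 10.5 ± 0.785 and Tomm40l at 10.8 ± 0.433 CPM per kb, which did not differ beyond their spread. This order rests on the transcript length. With the longest transcript, Timm10b (3.89), Timm9, Timm17a (5.92) and Tomm40l (6.29 CPM per kb) would be the lowest, whereas Timm23 would stand at 95.7, still the highest.

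**Figure D2:**
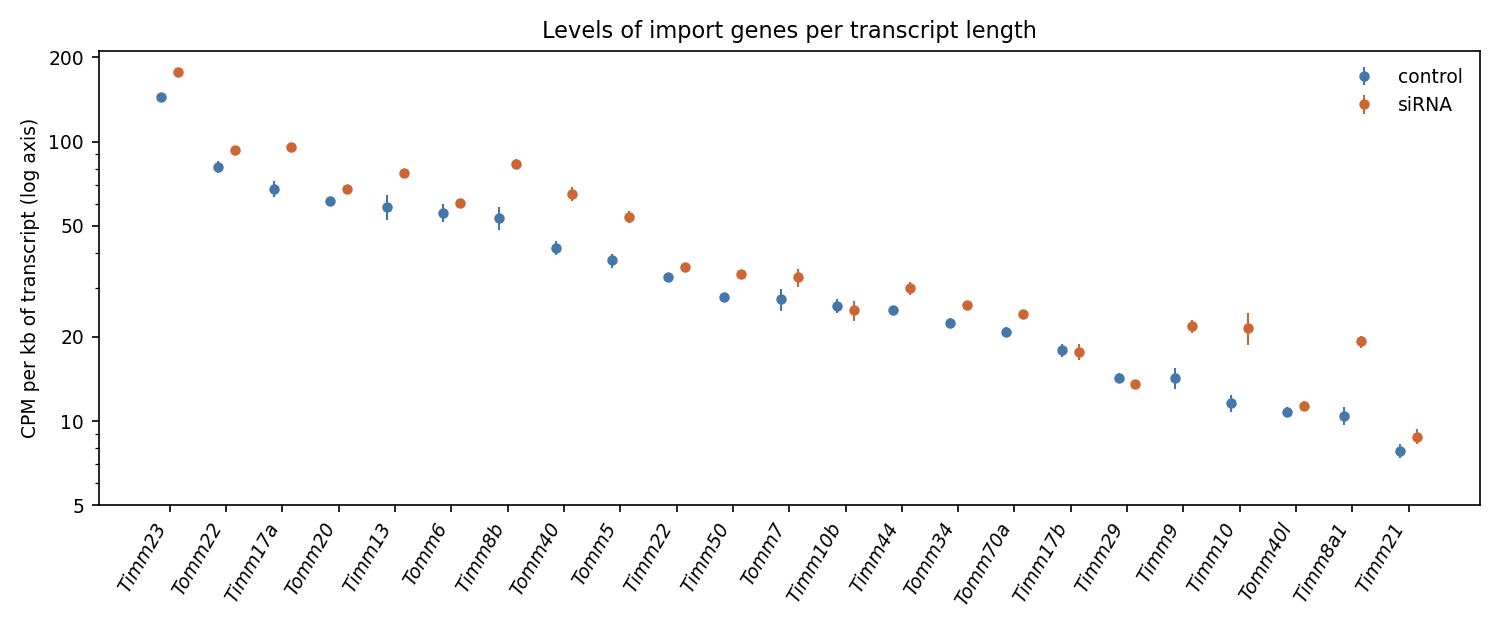
Mean level of the 23 tested import genes per kilobase of transcript in control (blue) and siRNA libraries (orange), with bars for the SD over 5 libraries, on a log axis, ordered by the control level. Timm23 is highest at 144 CPM per kb, and Timm8a1, Timm10 and Timm9, near the low end in control libraries, are at 19.3 to 21.8 CPM per kb in siRNA libraries.

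Among the ribosome genes, 53 of 78 rose, 7 fell and 18 did not pass, with a median log2 fold change of 0.19 and the middle quartiles of the genes lying between 0.04 and 0.30. The difference between large and small subunit genes was not tested. Of 49 Mrpl genes 32 rose, 5 fell and 12 did not pass (median 0.19), and of 29 Mrps genes 21 rose, 2 fell and 6 did not pass (median 0.18). Tested against a fold of 1.2, 10 Mrpl and 7 Mrps genes rose. By their names the proteins of Mrps18a and Mrps30 belong to the small subunit, but in the mammalian ribosome they sit in the large one, and Mrps36 is now known as a subunit of a matrix dehydrogenase; these 3 had log2 fold changes of 0.39, 0.13 and −0.14 (adjusted p = 0.0662 for Mrps36, edgeR).

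**Figure D3:**
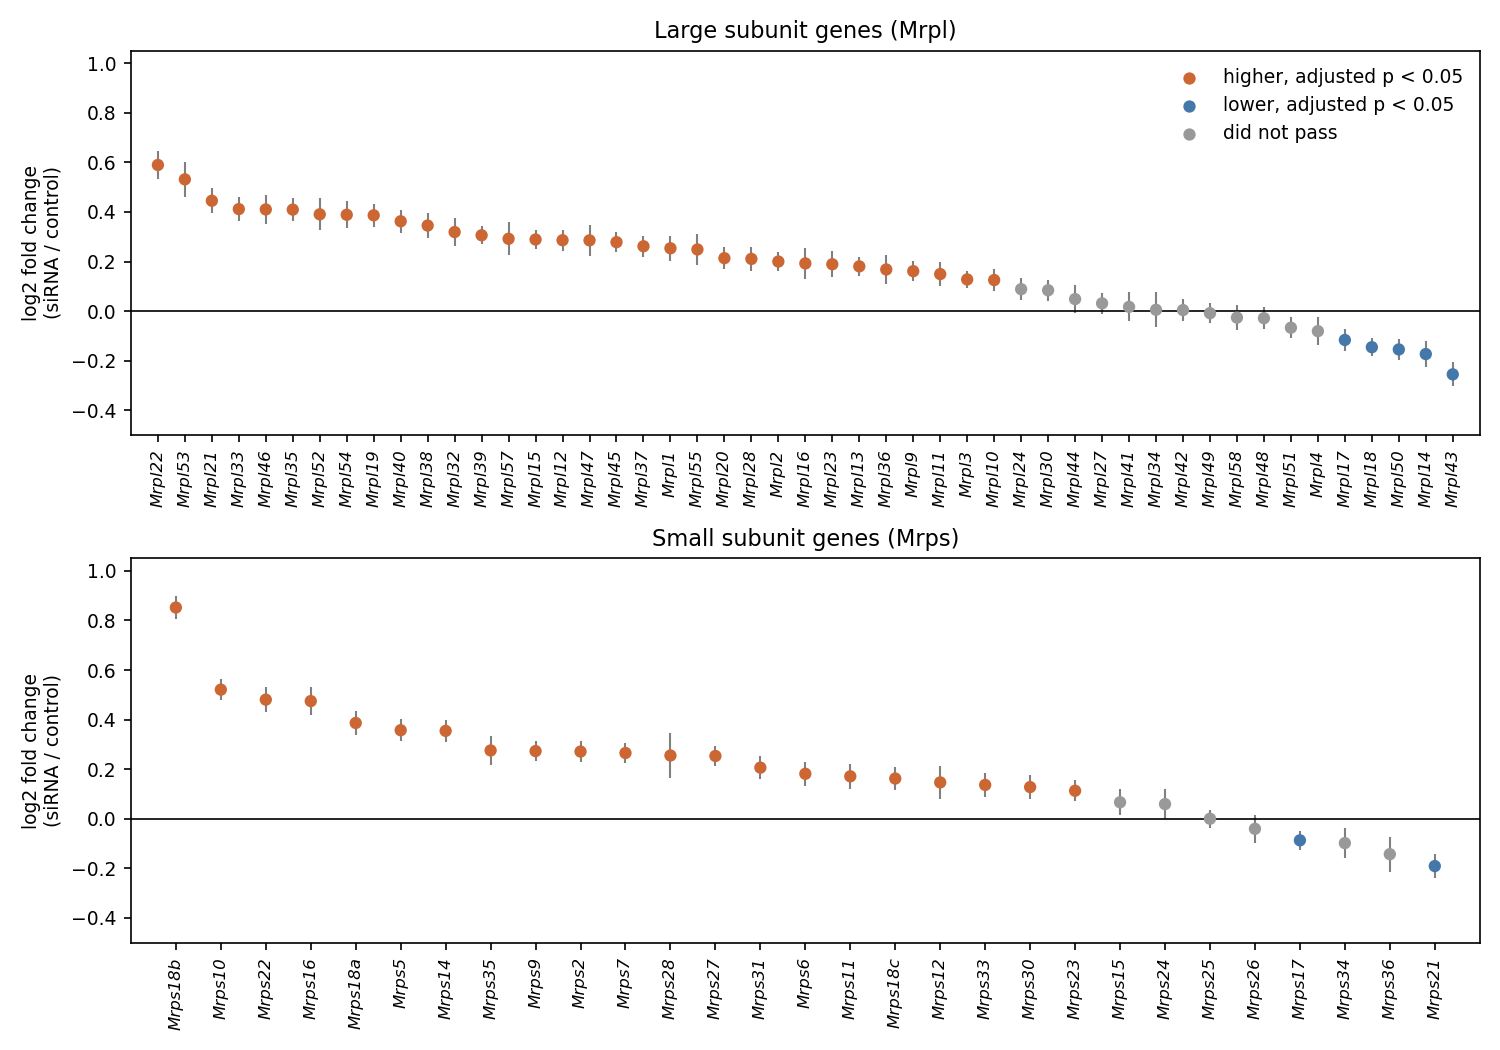
Log2 fold change of siRNA over control for the 49 Mrpl genes (top) and the 29 Mrps genes (bottom), sorted by size. Bars give a standard error derived from the F statistic of the fit. Orange marks genes that rose and blue genes that fell at an adjusted p under 0.05, and grey those that did not pass. Mrps18b, at 0.85, lies apart from the next gene, Mrps10, at 0.52.

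Mrps18b had the largest rise of the ribosome genes. It encodes a mammalian relative of a bacterial small subunit protein and lies in the major histocompatibility region of the genome (Entrez gene 66973, chromosome 17, 35910380 to 35916440). Its level was 23.04, 20.6, 21.1, 20.7 and 22.04 CPM in control and 39.3, 39.3, 37.9, 36.8 and 40.7 CPM in siRNA libraries. The gap between the groups was wider than the range within either, and the log2 fold change was 0.85 (SE 0.0454, edgeR adjusted p = 1.19e-20), while its relatives Mrps18a and Mrps18c rose by 0.39 and 0.16. A gene on the opposite strand shares 30.5% of the exon bases of Mrps18b. Mrps10 was at 30.5, 31.8, 31.6, 34.1 and 29.3 CPM in control and 42.9, 45.97, 47.1, 42.5 and 47.4 CPM in siRNA libraries (0.52), and Mrps22 (0.48), Mrps16 (0.47) and Mrps5 (0.36) followed with groups that did not overlap.

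Of the Mrpl genes, Mrpl22 (Entrez gene 216767, chromosome 11, 58170043 to 58179580) rose most, from 15.2, 14.1, 14.9, 15.2 and 13.2 CPM in control to 19.9, 22.4, 22.8, 22.8 and 21.6 CPM in siRNA libraries (0.59, SE 0.0568, edgeR adjusted p = 2.12e-12). All siRNA libraries were above all controls. Mrpl53 followed at 0.53, but 88% of its exon bases are shared with another gene on the same strand, so its level is uncertain to that extent. Mrpl21 (0.45), Mrpl33 (0.41), Mrpl46 (0.41) and Mrpl35 (0.41) also rose without overlap. Mrpl46 shares its start region with a small subunit gene: it and Mrps11 lie head to head on chromosome 7, with 41 bases between their annotated starts. Mrps11 rose by 0.17, from 21.03, 18.6, 20.3, 20.1 and 21.1 CPM in control to 22.4, 22.5, 23.2, 22.1 and 23.8 CPM in siRNA libraries, and Mrpl46 from 14.2, 13.96, 16.1, 13.8 and 13.7 to 18.9, 18.4, 17.9, 19.6 and 20.5 CPM. The other Mrpl and Mrps genes that rose had log2 fold changes between 0.11 (Mrps23) and 0.39 (Mrpl52).

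The ribosome genes that fell did so by less than the leading genes rose. Mrpl43 had the largest fall, from 24.6, 24.9, 24.2, 24.3 and 22.3 CPM in control to 20.3, 20.8, 20.3, 19.7 and 19.8 CPM in siRNA libraries (−0.25, SE 0.0489, edgeR adjusted p = 1.27e-05), with every siRNA library below every control library. Its estimated count was not a whole number in any of the 10 libraries, as when reads are divided between genes, and 33.4% of its exon bases are shared with a gene on the opposite strand. Mrpl14 (−0.17), Mrpl50 (−0.15), Mrpl18 (−0.15), Mrpl17 (−0.12), Mrps21 (−0.19) and Mrps17 (−0.09) fell as well. Mrpl18 likewise had no whole count in any library. Mrps17 (adjusted p = 0.0439, edgeR) lost its call with DESeq2, without a filter and with the replicate number as a block. Its call was also lost in 8 of the 10 fits that each left out 1 library. Mrpl17 lost its call without siRNA replicate 1. Among the 18 ribosome genes that did not pass, Mrps25 and Mrps34 share 69.8% and 63.4% of their exon bases with genes on the opposite strand.

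Summed over their tested genes, the import family took 1085, 1072, 1108, 1094 and 1046 CPM in control libraries 1 to 5 and 1312, 1285, 1308, 1328 and 1329.5 CPM in siRNA libraries 1 to 5. The ribosome family took 2210.1, 2215, 2263, 2251 and 2135 CPM in control and 2478, 2481, 2520.3, 2471 and 2559 CPM in siRNA libraries. In both families control library 5 was the lowest, and the highest control library was under the lowest siRNA library. The import sum went from 1081 ± 23.5 to 1312 ± 17.9 CPM and the ribosome sum from 2215 ± 50.2 to 2502 ± 37.4 CPM (SD, n = 5 each). The ratio of the import sum to the ribosome sum within a library was 0.488 ± 0.00296 in control and 0.525 ± 0.00842 in siRNA libraries, with ranges of 0.484 to 0.491 and 0.518 to 0.537 that did not overlap. Within the import family the small TIM sum went from 106 ± 7.47 to 156 ± 2.67 CPM, the TIM23 sum from 286 ± 4.98 to 349 ± 5.26 CPM and the TOM sum from 542 ± 14.7 to 652 ± 12.9 CPM. These sums weight abundant genes most and are a description, since the genes were picked with the contrast known.

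Other parts of the import path were also mostly higher. Of 22 further import components 15 rose (68.2%), 2 fell (9.09%) and 5 did not pass, with a median log2 fold change of 0.25. Over all genes tested 36.1% rose and 35.2% fell. Chchd4, the oxidase that folds small TIM proteins in the intermembrane space, rose from 11.7, 12.8, 11.9, 13.9 and 10.99 CPM in control to 21.6, 19.97, 21.5, 19.5 and 23.9 CPM in siRNA libraries (0.80), and the groups did not overlap. Hspa9, the matrix chaperone that drives the import motor, rose from 254, 240.4, 254, 263 and 246 to 405, 422, 426, 421 and 434 CPM (0.75, edgeR adjusted p = 1.81e-27), also without overlap. Samm50, the core of the outer membrane assembly machinery (0.45), and Pmpca, a subunit of the peptidase that removes targeting signals (0.26), rose too. Oxa1l, which inserts ribosome products into the inner membrane (−0.30), and the insertase gene Mtch2 (−0.08) fell, and both were singled out after their values were seen. Pmpca and Oxa1l had no whole count in any library.

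Of 5 ribosome subunits that carry other symbols, 4 rose (Chchd1 0.68, Dap3 0.23, Ptcd3 0.23 and Gadd45gip1 0.38) and Aurkaip1 (−0.16) fell. Of 15 factors of mitochondrial translation 8 rose, 1 fell and 6 did not pass (median 0.14). The shares that rose and fell were 53.3% and 6.67%, against 36.1% and 35.2% of all genes tested. The elongation factor gene Gfm1 rose by 0.36, Tsfm, which recharges the factor that delivers tRNA, by 0.45, and Lrpprc and Slirp, whose products together stabilise mitochondrial mRNA, by 0.37 and 0.39. Exons of Slirp overlap a gene on the opposite strand over 97.8% of their length. Of 26 ribosome assembly factors 14 rose (53.8%), 2 fell (7.69%) and 10 did not pass (median 0.14). The rises were led by Rcc1l (0.59), Gtpbp10 (0.56), Rpusd4 (0.48) and Fastkd2 (0.42). Of 11 genes for copying and transcribing the mitochondrial genome 5 rose (45.5%), 2 fell (18.2%) and 4 did not pass (median 0.13). The DNA-binding protein gene Ssbp1 rose by 0.55, from 22.3, 19.5, 21.95, 19.3 and 24.4 CPM in control to 30.9, 30.8, 30.95, 32.1 and 32.4 CPM in siRNA libraries, whereas Tfam, which packages mitochondrial DNA and starts its transcription, fell by 0.23, from 39.6, 41.8, 43.8, 40.97 and 43.4 to 34.9, 34.1, 36.9, 35.8 and 36.9 CPM. For both genes the groups did not overlap. The polymerase gene Polg rose by 0.13 and Mterf2 fell by 0.28. Polg had no whole count in any library, and 22.7% of the exon bases of Mterf2 are shared with the opposite strand. No mRNA encoded by the mitochondrial genome was analysed here.

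Of 14 mitochondrial chaperone and protease genes 11 rose (78.6%), 2 fell (14.3%) and 1 did not pass (median 0.19). Over all genes tested the shares were 36.1% and 35.2%. Hspd1, the folding chamber HSP60, rose from 149, 139, 151, 146 and 147 CPM in control to 264, 294, 292, 277 and 311 CPM in siRNA libraries (0.97), and no siRNA library overlapped the controls. The protease genes Afg3l2 (0.35) and Lonp1 (0.25) and the prohibitin gene Phb2 (0.31) rose by less. Of 4 genes often read as markers of mitochondrial mass all rose, by 0.08 for Vdac1, 0.10 for Vdac3, 0.18 for Cs (citrate synthase) and 0.22 for Vdac2. Of 11 tested regulators of these genes 5 rose, 3 fell and 3 did not pass. As shares, 45.5% rose and 27.3% fell, where over all genes tested 36.1% rose and 35.2% fell. The coactivator gene Pprc1 (0.78), Myc (0.48) and the stress factor genes Atf4 (0.91) and Atf5 (0.95) rose. Of regulators singled out after their values were seen, Gabpa (−0.22), Yy1 (−0.22) and Ppargc1b (−0.79) fell, Nrf1 did not pass (0.09, edgeR adjusted p = 0.0506), and Ppargc1a, with summed counts of 45 (control) and 35 (siRNA), was not tested.

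**Figure D4:**
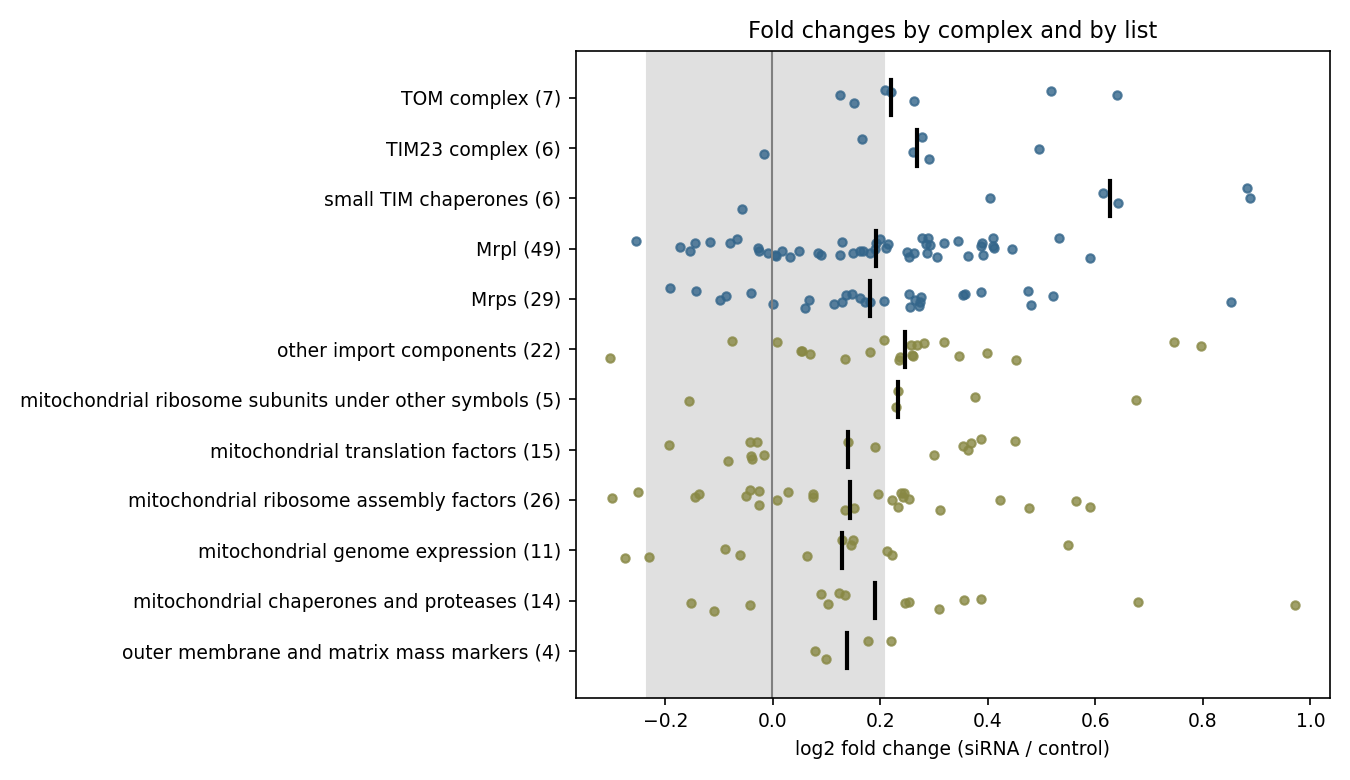
Log2 fold change (horizontal axis) of each tested gene by complex or list, with the number of genes in parentheses, blue for the members, olive for the further lists and a black bar for each median. The grey band spans the middle quartiles of all 12161 genes tested (−0.23 to 0.21), and the median of the small TIM group, 0.63, lies to its right.

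Promoters were examined for sequence words of factors known to act on nuclear genes for mitochondrial proteins. RefSeq promoter windows (GRCm38.p6), 250 bases before to 50 after the start, were matched for 91 of the 103 genes, using for each gene the window nearest its annotated start. For 7 members the nearest start lay over 1000 bases from the annotated one (Mrps23, Timm8a2, Mrpl36, Mrps2, Mrpl18, Mrpl22 and Mrpl24, by falling distance), and these windows are included in the counts, with the ETS word in 4 of them and each other word in 1. The words, searched on both strands, were GCGCATGC for NRF1, CCGGAAG for GABP and other ETS factors, CACGTG (the E-box bound by MYC and other factors) and AAGATGGC for YY1. The ETS word stood in 33 of the 91 windows (36.3%), against 9.14% of all 27025 windows and 18.8% of the 9763 windows of tested genes. The YY1 word stood in 13 (14.3%, against 2.87% and 4.84%), 12 of them of ribosome genes. The NRF1 word stood in 9 (9.89%, against 2.80% and 5.61%). The E-box stood in 10 (10.99%, against 7.24% and 10.3%).

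By family, 5 of 22 import windows held the E-box, those of Timm10, Timm8a1, Timm9, Tomm20 and Tomm20l, and 5 of 69 ribosome windows did. Timm10, Timm8a1 and Timm9 are among the 5 import genes with the largest rise, and Tomm20 rose by 0.15. In Timm10 the E-box did not lie within the 250 bases before the start. Timm10, Timm8a1 and Timm9 also belong to the small TIM group, whose median log2 fold change was 0.63. Of the tested small TIM genes without the E-box, Timm8b (0.64) and Timm13 (0.40) rose and Timm10b (−0.06) did not pass. The E-box and the small TIM group were not tested apart. The median log2 fold change was 0.75 over the 4 tested import genes with the E-box and 0.24 over the 16 without, and 0.20 and 0.18 over the 5 ribosome genes with and the 64 without. Over all tested genes it was 0.06 with and −0.00450 without. For the ETS word the members' medians were 0.19 with and 0.21 without, and those of all tested genes 0.0852 and −0.0206. For the NRF1 word the members' medians were 0.32 with (9 genes) and 0.20 without, and those of all tested genes 0.0352 and −0.00229. With the YY1 word (13 genes) the members' median was 0.25 and without it 0.20, beside 0.0331 and −0.000941 over all tested genes. These differences were not tested. A word in a window is a match of letters, and binding was not measured.

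The stretches below belong to the members that rose by at least 0.4 on the log2 scale and have one of these words in the part of the 250 bases before the start that is free of annotated exons. Each is the longest exon-free run there, 5′ to 3′ on the strand of the gene, with the words in capitals. The E-box is marked in Timm8a1 (chrX:134541866-134541920 on the minus strand) and Timm9 (chr12:71136685-71136847 on the minus strand), the ETS word in Timm8b (chr9:50603813-50603900 on the plus strand) and Mrps22 (chr9:98601680-98601929 on the minus strand), the NRF1 word in Timm13 (chr10:80900970-80901202 on the minus strand) and both the ETS and the NRF1 word in Mrpl22 (chr11:58171414-58171660 on the plus strand).
Timm8a1: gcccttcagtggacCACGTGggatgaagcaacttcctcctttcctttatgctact
Timm9: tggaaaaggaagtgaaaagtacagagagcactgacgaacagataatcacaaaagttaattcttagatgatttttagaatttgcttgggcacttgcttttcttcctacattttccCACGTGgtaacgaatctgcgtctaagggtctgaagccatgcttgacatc
Timm8b: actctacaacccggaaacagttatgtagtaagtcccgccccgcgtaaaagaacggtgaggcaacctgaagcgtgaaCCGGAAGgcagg
Timm13: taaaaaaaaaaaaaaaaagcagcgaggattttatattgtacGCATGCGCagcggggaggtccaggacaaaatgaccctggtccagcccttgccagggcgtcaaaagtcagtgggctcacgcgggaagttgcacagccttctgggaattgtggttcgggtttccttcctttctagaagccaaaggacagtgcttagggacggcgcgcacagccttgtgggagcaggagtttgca
Mrpl22: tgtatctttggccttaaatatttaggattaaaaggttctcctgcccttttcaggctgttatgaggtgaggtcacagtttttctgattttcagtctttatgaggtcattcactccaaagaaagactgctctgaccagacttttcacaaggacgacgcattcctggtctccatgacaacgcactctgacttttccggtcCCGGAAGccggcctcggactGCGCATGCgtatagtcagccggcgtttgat
Mrps22: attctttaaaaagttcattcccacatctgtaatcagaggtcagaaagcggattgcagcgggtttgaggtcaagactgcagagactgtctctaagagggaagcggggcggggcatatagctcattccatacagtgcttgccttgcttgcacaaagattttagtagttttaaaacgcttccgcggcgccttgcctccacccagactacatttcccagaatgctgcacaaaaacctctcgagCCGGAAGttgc

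The transcription start that the window of Mrpl22 precedes lies 1621 bases inside the annotated gene. In Timm8a1 the E-box begins 236 bases before the start and in Timm9 58 bases before it. The ETS word of Timm8b begins 12 bases and that of Mrps22 11 bases before the start, and the NRF1 word of Timm13 192 bases before it. The 6 genes shown rose by between 0.40 (Timm13) and 0.88 (Timm8a1). The ETS word also stood in the windows of 4 of the 7 ribosome genes that fell, Mrpl43, Mrpl17, Mrpl18 and Mrps21. Over all ribosome genes 24 of 69 windows (34.8%) held it. The start used for Mrpl18 lay 1696 bases from the annotated one. In Mrpl43 the ETS word begins 56 and 12 bases before the start.

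The size of the change among the members was also set beside their level, length and base composition. Across 101 genes, which share the same 10 libraries and are not independent, Spearman's rho of the log2 fold change was −0.18 with the control level, 0.01 with transcript length and −0.12 with GC content. Over the 23 import genes rho with length was −0.36, and over the 78 ribosome genes it was 0.14. The median transcript length was 0.585 kb for small TIM genes, 1.18 kb for import genes and 2.22 kb for all tested genes. What part the small TIM genes have in the rho of the import genes was not tested. With per-library trends on GC content and length removed, the median log2 fold change was 0.24 for import and 0.18 for ribosome genes.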

How the data were processed

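Polyadenylated RNA of 10 libraries was sequenced. The deposited table holds expected counts per gene that the authors estimated; the submitters' processing notes list RSEM 1.3.1, Bowtie2 2.4.5 and HISAT2 2.2.1 and give GRCm38.p6 as the build, with no role for each tool. Values that were not whole, 10.5% to 11.3% per library, were rounded. The table was fitted with edgeR 4.0.16 (quasi-likelihood F test, robust fit, TMM scaling, low counts removed by filterByExpr at 10) with group as the only term, and p-values were adjusted by Benjamini-Hochberg over all 12161 genes tested, with a threshold of 0.05. Standard errors (SE) were derived as the absolute log2 fold change divided by the square root of the F statistic. The biological coefficient of variation was 2.85%. The fit was also run on simulated data in which few genes changed and all genes had the same dispersion. That run does not show how the fit behaves where most genes pass, as here.

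Members were found by symbol, and the members and gene lists were chosen with earlier results of these data known. The text names Kdr, all import genes, the 6 largest rises and falls that passed among Mrpl and among Mrps genes, and from each list the 4 genes with the lowest adjusted p. Other genes were picked after their values were seen. Transcript lengths, GC content and exon overlaps came from GENCODE M21, coordinates and promoters from RefSeq (GRCm38.p6). All 103 members had a transcript length and RefSeq coordinates, and 91 had a promoter window. Alternatives used other scaling (RLE, upper quartile), DESeq2 1.42.0, limma-voom (limma 3.58.1), other filters, the replicate number as a block, GC and length offsets, glmTreat, the longest transcript, and each library left out in turn. A planned search for a cysteine motif in small TIM proteins was not run.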

Additional observations from a re-analysis of the deposited data

Results flagged for a closer look

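For 75 genes, those named by rule, the 5 values of a group were compared, and in 11 of 150 such groups 1 library lay far from the other 4 (gap to the nearest over 0.71 of the whole range). Chance gives this in about 5% of groups. Control library 5 was the low one in 5 of them. Timm10 was at 6.39 CPM there and at 7.28 to 7.62 CPM in the other controls. Tomm40 was at 59.4 CPM there and at 66.3 to 68.8 CPM in the other controls. Mrpl43 was at 22.3 CPM there and at 24.2 to 24.9 CPM in the other controls. Phb2 was at 109 CPM there and at 119 to 121 CPM in the other controls. Myc was at 64.2 CPM there and at 71.5 to 74.4 CPM in the other controls. The remaining cases were spread over other libraries. Tomm70a had its highest value, 133 CPM, in control library 1, against 121 to 124 CPM in the rest of that group. Mrpl21 had its lowest value, 30.1 CPM, in siRNA library 2, against 33.7 to 34.7 CPM in the rest of that group. Mrpl46 had its highest value, 16.1 CPM, in control library 3, against 13.7 to 14.2 CPM in the rest of that group. Mrps17 had its lowest value, 38.8 CPM, in siRNA library 4, against 39.99 to 40.3 CPM in the rest of that group. Pprc1 had its highest value, 47.9 CPM, in control library 2, against 42.3 to 43.7 CPM in the rest of that group. Myc had its highest value, 104 CPM, in siRNA library 5, against 98.2 to 99.7 CPM in the rest of that group.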

How the results depend on the processing

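Against a fold of 1.2 the counts of genes higher and lower were 1685 and 1916 over all genes, 8 and 0 among import genes, 17 and 0 among ribosome genes, 10 and 0 among Mrpl genes and 7 and 0 among Mrps genes. The count of import genes that fell, 0, was 1 (Timm29) with upper-quartile scaling and with a mean of at least 5 CPM, and 0 to 1 with a library left out (1 without control replicate 2). The count of Mrps genes that fell, 2, was 1 with DESeq2 and with no filter, and 1 to 3 with a library left out (1 without control replicate 1 or 3 or siRNA replicate 2, 3 or 4). The ribosome median was 0.18 to 0.21 with a library left out, and highest without control replicate 4. The direction turned for 2 genes that did not pass: with GC and length offsets Timm10b was at 0.00945 and Timm17b at 0.00920, and Timm17b ran from −0.0572 to 0.00924 with a library left out. The median log2 fold change of all genes lay between −0.02 (upper quartile) and 0.02 (GC and length offsets). The cause of these shifts was not tested.

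Same-numbered control and siRNA libraries did not deviate together (correlations −0.0982 to −0.00664), so the numbers were not taken to pair the samples. With the replicate block 8537 genes passed, against 8668 without it, and the fall of Mrps17 did not pass (edgeR adjusted p = 0.0580), which left 1 Mrps gene that fell. With the replicate block and the GC and length offsets together, Timm10b was at 0.00866 and Timm17b at 0.00881. Per-length levels with the longest transcript left the spread of the control libraries for 14 of 23 import genes, at 10.5 (Timm10), 3.89 (Timm10b), 25.8 (Timm13), 5.92 (Timm17a), 10.6 (Timm17b), 8.68 (Timm22), 95.7 (Timm23), 4.65 (Timm9), 33.4 (Tomm20), 60.8 (Tomm22), 20.6 (Tomm34), 6.29 (Tomm40l), 33.5 (Tomm5) and 49.7 (Tomm6) CPM per kb.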
